A study of Mus musculus with 6 samples.

Results

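Transfer RNA (tRNA) genes were examined for peaks of DNA that probes to Tug1, a long noncoding RNA, pulled down. The members were the peaks of 4 pulldown libraries that overlapped a nuclear tRNA gene or lay within 5 kb of one, leaving out 1 short stretch each of chromosomes 8 and 6. They numbered 213 of 130269 peaks (0.164%), near 192 of the 403 tRNA genes on 19 chromosomes, and 76 of them overlapped a tRNA gene itself. No tRNA gene lay in the left-out stretches. The lists came from cultured mouse podocytes, the epithelial cells of the kidney glomerulus, immortalised with a temperature-sensitive SV40 T antigen, grown at 33 degrees, differentiated at 37 degrees for 10 days and used at passages 10 to 12. Chromatin crosslinked with glutaraldehyde was pulled down with either the even or the odd members of 48 biotinylated probes along Tug1 (chromatin isolation by RNA purification, ChIRP-seq), in 2 replicates per probe set, and each list was called by the authors against 1 of 2 input DNA libraries. All libraries shared the cell line and the crosslinking. Neither the input libraries nor any pulldown with probes against another RNA were analysed here, so recovery that does not need Tug1 cannot be told apart. The labels do not say if replicates were cultured apart, and their spread may be technical.

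Nuclear tRNA genes are short genes transcribed by RNA polymerase III. Their promoter lies inside the gene, where an A box and a B box are bound by the factor TFIIIC, which brings in TFIIIB and the polymerase. In mammals they occur as many near-identical copies, often in clusters, and active copies sit in open, nucleosome-poor chromatin. In the RefSeq gene table the symbol of a mouse tRNA gene gives the amino acid as 1 letter, the anticodon and a copy number, so that n-TLcag9 is a leucine tRNA gene with anticodon CAG.

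Sequence was at hand for tRNA genes that lie within the 300 bases of a neighbouring gene's promoter window, credited to RefSeq on GRCm38.p6, the assembly behind mm10. Of these windows 10 reached into a tRNA gene, 4 of them holding the gene whole. Of the genes shown, n-TLaag4 and n-TRtcg5 let the B box of the internal promoter be seen. The gene n-TDgtc8 is the case where a region of peaks on a tRNA gene reached a promoter window. That window holds no base of n-TDgtc8 itself. In the first and second line capitals mark the tRNA gene, and in the third they mark the bases inside the region of peaks. Sequences run 5′ to 3′ on the strand of the named promoter.
n-TLaag4, Polr3e promoter: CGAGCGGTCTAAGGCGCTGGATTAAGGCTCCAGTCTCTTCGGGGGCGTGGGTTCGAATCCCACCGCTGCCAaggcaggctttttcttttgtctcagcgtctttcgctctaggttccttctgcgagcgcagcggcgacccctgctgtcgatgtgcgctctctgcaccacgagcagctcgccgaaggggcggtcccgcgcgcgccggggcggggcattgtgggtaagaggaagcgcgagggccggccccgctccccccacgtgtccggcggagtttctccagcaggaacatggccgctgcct
n-TRtcg5, Polg promoter: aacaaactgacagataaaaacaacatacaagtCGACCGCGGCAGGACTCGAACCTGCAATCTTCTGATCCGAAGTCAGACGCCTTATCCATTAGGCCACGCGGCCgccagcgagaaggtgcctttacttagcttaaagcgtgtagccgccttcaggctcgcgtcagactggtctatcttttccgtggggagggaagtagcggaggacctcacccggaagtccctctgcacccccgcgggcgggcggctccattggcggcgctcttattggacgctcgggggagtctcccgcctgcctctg
n-TDgtc8, Lta4h promoter: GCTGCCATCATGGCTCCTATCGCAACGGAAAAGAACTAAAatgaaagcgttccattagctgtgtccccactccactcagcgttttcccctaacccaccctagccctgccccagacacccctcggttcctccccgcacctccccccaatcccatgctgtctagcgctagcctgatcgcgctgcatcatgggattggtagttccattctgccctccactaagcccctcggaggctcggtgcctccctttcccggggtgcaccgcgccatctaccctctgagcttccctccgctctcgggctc
The first window is that of Polr3e, which codes for a subunit of RNA polymerase III (chr7:120917528-120917827, plus strand), and it holds 71 of the 82 bases of n-TLaag4. The second is that of Polg, the mitochondrial DNA polymerase gene (chr7:79466224-79466523, minus strand), with all 73 bases of n-TRtcg5. The third is that of Lta4h, the leukotriene A4 hydrolase gene (chr10:93453146-93453445, plus strand), of which 40 bases lay inside the region of peaks at n-TDgtc8. Only the peak of even replicate 2, which ended at 93453185, reached this window. The peak of odd replicate 1 ended before it, at 93453049. The B box, searched by its core letters GGTTCGA on both strands, was found at bases 50 to 56 of the Polr3e window, on the same strand, and at bases 48 to 54 of the Polg window, on the opposite strand. It was not in the Lta4h window, which starts beyond the end of n-TDgtc8 and so says nothing on that gene. The core letters occurred in 299 of 32851 promoter windows (0.91%), and in 6 of the 10 windows that reached into a tRNA gene. Of the 4 windows with a whole gene 3 held the core, and a window with part of a gene can miss it.

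In each library, peaks lay on tRNA genes at least 5.04 times as densely as on positions 10 to 100 kb away. The planned main comparison was that of the 5 kb windows, given below, with the gene itself planned only as an alternative to it. The genes themselves, 0.0301 Mb in all, were overlapped by 22 and 15 peaks in even replicates 1 and 2 and by 23 and 16 peaks in odd replicates 1 and 2. After moving the gene positions by 10, 20 and so on to 100 kb to either side, and leaving out moved stretches that fell on another tRNA window, the same length of sequence held on average 3.31 and 2.35 peaks in the even lists and 1.19 and 3.18 peaks in the odd lists. Each of the 4 libraries was above all of its 20 moved sets: the densities at the genes were 732, 499, 765 and 532 peaks per Mb, in the same order, and the highest moved sets had 202, 197, 128 and 216 peaks per Mb. The fold over the moved mean was 6.64 and 6.39 for the even pair and 19.3 and 5.04 for the odd pair, which is a mean log2 ratio of 3.00 ± 0.87 (SD, n = 4 libraries). It was positive in 4 of 4 libraries. An exact two-sided sign-flip permutation test over the libraries gave p = 0.125, the smallest that 4 libraries allow, so the threshold of 0.05 could not be reached. The value of odd replicate 1 rested on 1.19 moved peaks, and without that library the mean fold was 5.98 against 8.02 with it (geometric means).

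**Figure D1:**
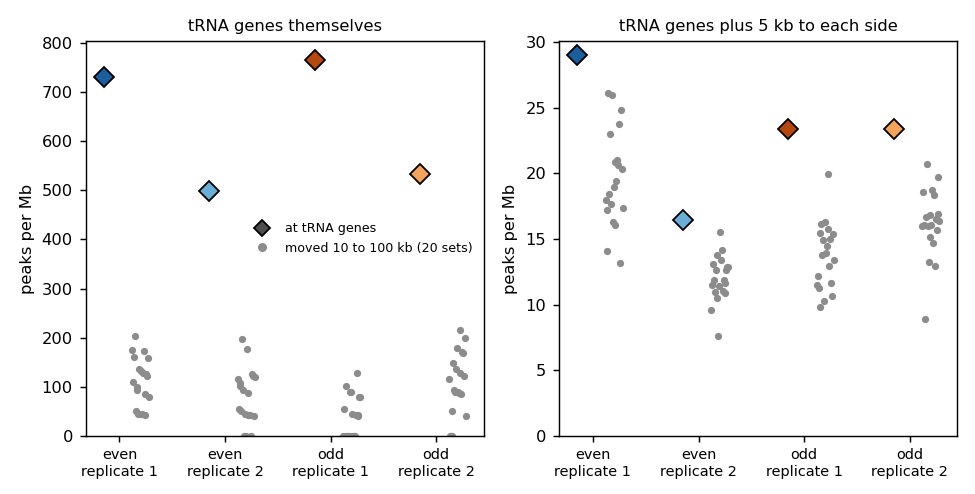
Peaks per Mb (vertical axes) in each library at tRNA genes (diamonds) and at the same positions moved by 10 to 100 kb (grey points, 20 sets a library), for the genes themselves on the left and with 5 kb to each side on the right. In both panels each diamond lies above all grey points of its library, by a wide margin on the left and a narrow one on the right.

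Beside the genes, peaks were about as dense as in moved windows. With 5 kb to each side the windows merged into 174 stretches of 2.31 Mb, which held 67 and 38 peaks in even replicates 1 and 2 and 54 in each odd library. Moved windows of that length gave means of 45.4 and 27.7 peaks for the even pair and 31.7 and 37.5 peaks for the odd pair. The ratios were 1.48, 1.37, 1.70 and 1.44, or a mean log2 ratio of 0.58 ± 0.13 (SD, n = 4; exact sign-flip permutation p = 0.125, the smallest possible). When peaks that touched the gene were left out, as were those that touched the moved gene positions, 45, 23, 31 and 38 peaks were left against moved means of 42.4, 25.6, 30.6 and 34.5. The log2 ratio was then 0.02 ± 0.13 (SD, n = 4, exact sign-flip permutation p = 0.75), above 0 in 3 libraries and below it in even replicate 2.

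**Figure D2:**
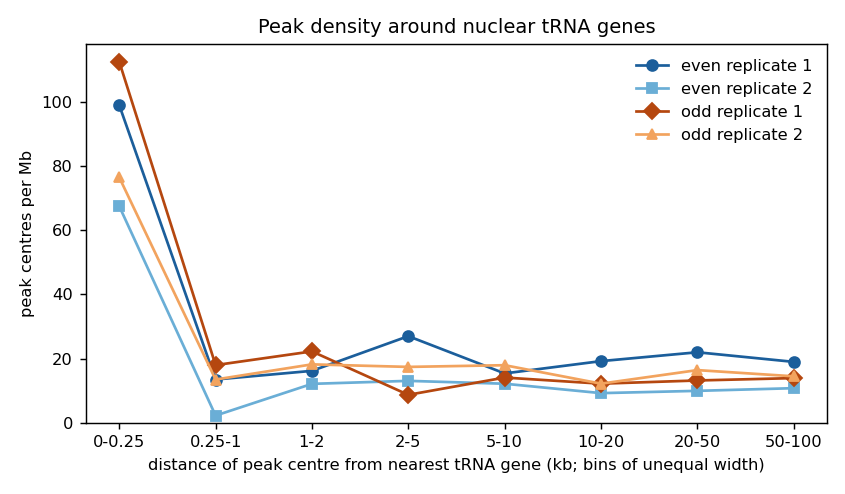
Peak centres per Mb (vertical axis) by distance from the nearest tRNA gene (horizontal axis, bins of unequal width in kb), 1 line per library. Densities of 67.5 to 112 per Mb within 0.25 kb drop to 2.25 to 17.97 per Mb at 0.25 to 1 kb and are 10.8 to 18.98 per Mb at 50 to 100 kb.

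Peak centres showed the same pattern. Within 0.25 kb of a gene the density was 99.0, 67.5, 112 and 76.5 centres per Mb (even replicates 1 and 2, then odd replicates 1 and 2), whereas at 50 to 100 kb it was 18.98, 10.8, 13.9 and 14.5. The peaks on tRNA genes also sat close over them. Of the 76 peaks, 73 covered a whole gene, which measures 70 to 107 bp, and 53 (69.7%) had their centre within 100 bp of the centre of the gene. Among 132 peaks that touched moved positions, 97 covered the whole stretch and 64 (48.5%) were centred within 100 bp. The median distance between the centres was 41.8 bp on tRNA genes and 106 bp on moved positions. By library it was 50.8, 14.5, 16.5 and 95.0 bp, so that even replicate 2 and odd replicate 1 were the most sharply centred. Median widths of the peaks on genes were 398 and 332 bp for the even pair and 327 and 578 bp for the odd pair, where all peaks of those lists had medians of 399, 404, 247 and 407 bp.

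The score given to each peak by the authors' peak caller has no stated scale and was used within a list, as a percentile. In the replicate 1 lists most peaks shared a score of 3100 (78.6% of even and 99.9% of odd peaks), which leaves little room to rank. In even replicate 1, 16 of the 22 peaks on tRNA genes had this score. The rest scored lower, at percentiles of 2.64 to 17.21, so these peaks did not stand high in that list. In even replicate 2, peaks on tRNA genes had a median score of 354, those beside the genes 248 and the whole list 265. In odd replicate 2 the medians were 284, 229 and 221. Peaks on the genes stood at a median percentile of 69.7 in even replicate 2 and 66.6 in odd replicate 2, with 13 of 15 and 11 of 16 above the middle of their list, against medians of 45.2 and 52.3 for peaks beside the genes.

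The probe sets did not differ beyond the spread between replicates. Peaks on genes numbered 18.5 ± 4.95 in the even and 19.5 ± 4.95 in the odd libraries (SD, n = 2 each), a difference of -1 (exact two-sided permutation p = 0.667, where 2 against 2 libraries cannot go below 0.333). For the windows of 5 kb, the mean log2 ratio was 0.51 ± 0.07 in even and 0.65 ± 0.17 in odd libraries, a difference of -0.14 (exact permutation p = 0.667). By gene, 44 of 403 tRNA genes (10.9%) had a peak in the gene in at least 1 library, 12 of them in even libraries alone, 12 in odd libraries alone and 20 in both sets. Among moved positions 2.37% had a peak, as had 2.61% of miRNA genes, 5.07% of snoRNA genes and 2.79% of snRNA genes. In single libraries the share was 5.71% and 3.97% for the even pair and 6.45% and 5.21% for the odd pair, against 0.831%, 0.593%, 0.305% and 0.814% of moved positions.

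Genes reached by both probe sets made up 4.96% of the tRNA genes (20 genes). They included n-TEctc8, whose only even peak started at its last position. They numbered 12 without even replicate 1, and 11 of 378 (2.91%) without the chromosome 1 cluster described below, which was left out after its values were seen. Peaks of both sets lay on 0.119% of 5899 moved positions, and on 0.244% of miRNA genes, 0.299% of snoRNA genes and 0.797% of snRNA genes, other short RNA genes counted in the same way. A peak of all 4 libraries lay on 7 tRNA genes (1.74%), on none of the moved positions, and on 1 of 1228 miRNA, none of 1340 snoRNA and 4 of 1004 snRNA genes. Within 5 kb, 192 tRNA genes (47.64%) had a peak against 43.1% of moved positions, and 19.1% had peaks of both sets against 9.57%. Genes of a cluster share peaks and near-identical sequence and are not independent, and no test was made on these shares.

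Peaks merged across libraries where they shared at least 1 bp gave 159 regions within 5 kb of a tRNA gene. Of the 38 regions on a tRNA gene, 18 (47.4%) held peaks of both probe sets and 6 (15.8%) of all 4 libraries. Of the 121 regions beside the genes, 10 (8.26%) held both sets and none all 4. All 113114 merged regions of the series held both sets in 7.05% and all 4 libraries in 0.661%, and 1321 regions in moved windows in 7.04% and 0.606%. The share for regions beside tRNA genes was near these backgrounds, and that for regions on the genes was above them. Without the chromosome 1 cluster, 28 regions on genes remained, of which 10 (35.7%) held both sets and 5 all 4 libraries.

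The regions of all 4 libraries were on 7 tRNA genes of 5 chromosomes, coding for methionine, leucine, aspartate and serine tRNAs. Highest by mean percentile was n-TMcat5, a methionine tRNA gene at chr13:23500080-23500151, with scores of 3100 and 1978 in even replicates 1 and 2 and 3100 and 837 in odd replicates 1 and 2. Its replicate 2 scores stood at percentiles 99.8 and 98.1 of their lists. n-TLcag9, a leucine tRNA gene at chr1:171101838-171101920, scored 3100 and 863 with even and 3100 and 552 with odd probes. n-TDgtc16, an aspartate tRNA gene at chr10:91182097-91182168, scored 3100 and 1083 with even and 3100 and 322 with odd probes. It lies 345 bp from Tmpo, the gene of a nuclear lamina-associated protein, and its region was 351 bp wide. The replicate 2 scores of these 3 genes stood at percentiles of 73.8 to 99.8.

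The other genes of all 4 libraries ranked lower by mean percentile. n-TSgct2, a serine tRNA gene at chr13:21492845-21492926, had 3100 and 483 with even and 3100 and 392 with odd probes, the replicate 2 scores being at percentiles 86.3 and 83.6. n-TDgtc9, an aspartate tRNA gene at chr11:69040984-69041055 and 4511 bp from the telomere maintenance gene Ctc1, had 2912 and 379 with even and 3100 and 321 with odd probes. The leucine tRNA genes n-TLcag5 and n-TLcag4, at chr8:94703631-94703713 and chr8:94704004-94704086, shared 1 region of 703 bp, and its replicate 2 scores of 277 with even and 103 with odd probes, beside 3100 in both replicate 1 lists, were at percentiles 52.9 and 6.19. They were the weakest of the 7 in odd replicate 2.

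**Figure D3:**
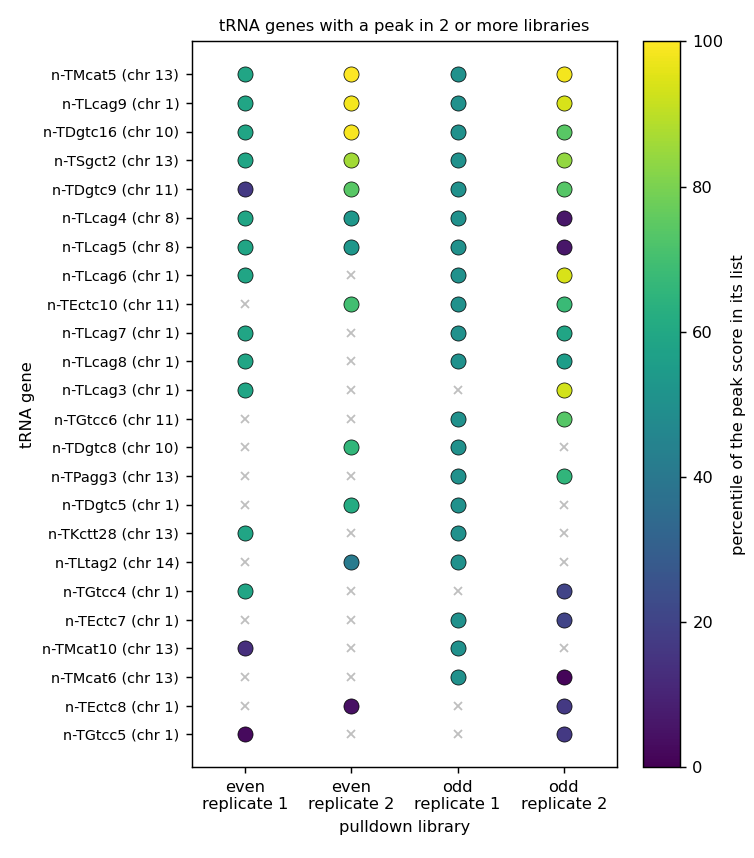
The 24 tRNA genes with a peak in the gene in at least 2 libraries (rows, with their chromosome) by pulldown library (columns). Colour gives the percentile of the peak score within its list, and a cross marks no peak. The 7 genes at the top have a peak in every library, and percentiles of the replicate 1 lists vary little because most of their scores are tied.

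Peaks of 3 libraries lay on 4 further genes. n-TEctc10, a glutamate tRNA gene at chr11:58302177-58302248 near the zinc finger gene Zfp692, had no peak in even replicate 1 and scores of 354 in even replicate 2 and 291 in odd replicate 2. The others were n-TLcag6, n-TLcag7 and n-TLcag8 of chromosome 1, each without a peak of even replicate 2. A further 13 genes had peaks of 2 libraries, among them n-TLcag3 (3100 in even replicate 1 and 534 in odd replicate 2), n-TDgtc5, n-TKctt28 and n-TDgtc8. The region of n-TDgtc8 ran from 93452847 to 93453185 of chromosome 10 and held a score of 334 in even replicate 2 and 3100 in odd replicate 1. Its edge, in capitals in the Lta4h window printed above, came from the even replicate 2 peak alone. None of the 24 genes with peaks of 2 or more libraries lay inside a protein-coding gene, and 3 lay within 500 bp of one. The share of all tRNA genes that near a coding gene is not given here. Of the 34 tRNA genes inside protein-coding genes, 2 had a peak in the gene, beside 44 of all 403 (10.9%). These counts are small and were not tested.

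Regions of both probe sets beside a tRNA gene were fewer and mostly of 2 libraries. The one with the highest scores lay 1906 bp from the threonine tRNA gene n-TTcgt2 (chr13:21262171-21262674), with 3100 and 583 in the even libraries and 530 in odd replicate 2. Another of 3 libraries lay 1082 bp from the proline tRNA gene n-TPtgg8 of chromosome 7, with 2547 in even replicate 1 and 3100 and 137 in odd replicates 1 and 2. Regions of 2 libraries lay 469 bp from n-TLaag4, 814 bp from the arginine tRNA gene n-TRacg2, 1629 bp from the asparagine tRNA gene n-TNgtt8, 3363 bp from n-TRtcg5 and 4323 bp from the glycine tRNA gene n-TGccc3. No peak of any library touched n-TLaag4 or n-TRtcg5 themselves, whose sequences are printed above. The other 3 lay in the cluster of chromosome 1, where the one nearest n-TEctc7, at 2176 bp, held 3 libraries at a mean percentile of 1.42.

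Chaining genes at most 500 kb apart gave 13 clusters of at least 5 genes, with 275 of the 403 genes. The cluster on chromosome 1 (171033942 to 171111515, 25 genes) stood apart, with 13 genes under a peak and 9 under peaks of both probe sets. Its windows held 11 and 6 peaks in even replicates 1 and 2 and 8 and 10 in odd replicates 1 and 2, or 128 per Mb on average against 11.2 per Mb in its moved windows. The cluster with most genes, on chromosome 13 from 21160785 to 22050767 (59 genes), had 7 genes under a peak, 3 under both sets, and 20.3 peaks per Mb against 12.1 when moved. The second cluster of chromosome 13, from 23270421 to 23530419 (45 genes), also had 7 genes under a peak but 22.4 peaks per Mb against 24.4 when moved. On chromosome 11, the cluster from 69037003 to 69125248 (18 genes) had 2 genes under a peak, and those of chromosomes 14 (7 genes) and 5 (5 genes) had 1 each.

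The other 7 clusters, with 116 genes, had no gene under a peak. The largest was that of chromosome 6 from 47978997 to 48363603, of 49 genes, with 0 and 2 peaks in even and 1 and 2 peaks in odd replicates 1 and 2 within 5 kb. This was 5.72 per Mb, against 22.5 per Mb in its moved windows. The cluster of chromosome 3 (25 genes) held 4 and 0 peaks with even and 0 and 5 with odd probes, all beside the genes, at 15.8 per Mb against 14.0 when moved. Outside clusters, 13 of 128 genes (10.2%) were under a peak, close to the share over all tRNA genes, and 3 of the 7 genes of all 4 libraries were there.

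**Figure D4:**
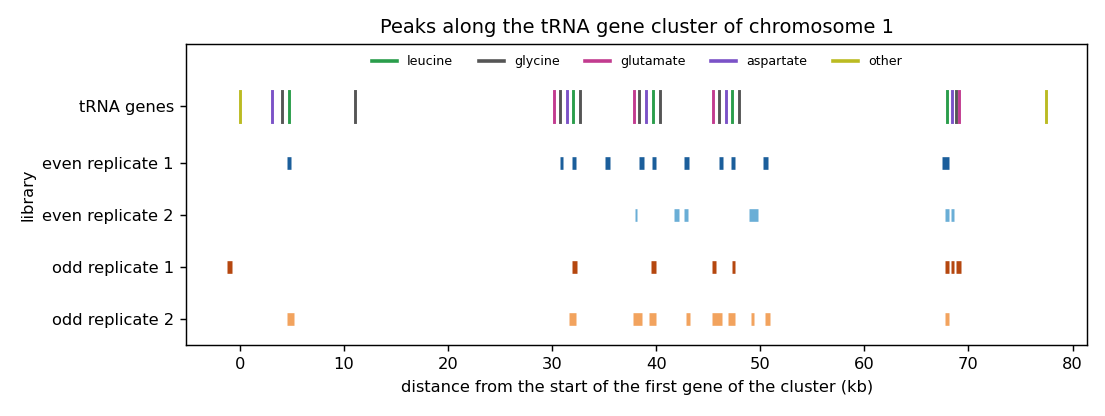
Positions of tRNA genes (top, coloured by amino acid) and of peaks in the 4 libraries along the cluster of chromosome 1, in kb from the start of its first gene. Between about 30 and 50 kb, peaks of every library but even replicate 2 recur at the leucine tRNA genes of 3 repeated units, and all 4 libraries have one at n-TLcag9 near 68 kb.

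In the chromosome 1 cluster the genes repeat in the order glutamate, glycine, aspartate, leucine and glycine. The leucine genes n-TLcag6, n-TLcag7 and n-TLcag8 of 3 units start 7635 and 7614 bp apart. Peaks of even replicate 1 and odd replicate 2 repeated with nearly the same spacing. The start of the peak minus the start of the gene was -398 bp at each of the 3 genes in odd replicate 2, with scores of 551, 253 and 240. In even replicate 1 it was -120, -117 and -117 bp, and in odd replicate 1 it was -144, -136 and 11 bp. At the glycine genes n-TGtcc1, n-TGtcc5 and n-TGtcc4 of the same units, it was -20 bp each time in even replicate 1. Even replicate 2 had no peak on a leucine gene of these units and 1 on the glutamate gene n-TEctc8, with a score of 116 (percentile 4.11). That peak started at the last position of the gene and lay otherwise beside it. The authors' handling of reads that align to several copies is stated in neither labels nor headers, and the sequence of the units was not used here, so peaks of different units cannot be told apart from reads of 1 unit placed on several.

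By amino acid, genes under a peak were unevenly spread. Of 20 amino acids in the gene symbols, 11 had a gene under a peak. Leucine had 9 of 25 genes, aspartate 5 of 16, methionine 5 of 16, glutamate 6 of 20 and glycine 8 of 28. Serine had 4 of 22, and lysine, proline, arginine, glutamine and tryptophan had 1 or 2 genes each. Alanine (33 genes), cysteine (56), valine (22), threonine (17), isoleucine (16), asparagine (13), histidine (11), tyrosine (10) and phenylalanine (7), 185 genes in all, had none in any library. Cysteine genes lay in the chromosome 6 cluster, none of whose 49 genes was under a peak. They also lay elsewhere, such as n-TCgca54 on chromosome 11 and n-TCgca52 on chromosome 17, likewise not under a peak. For the genes of the chromosome 6 cluster amino acid and cluster cannot be told apart. Peaks within 5 kb were found for genes of each of these 9 amino acids, in unequal shares. They were at 8 of 56 cysteine and 13 of 33 alanine genes, but at 10 of 11 histidine and 10 of 17 threonine genes. Of all tRNA genes 47.64% had such a peak, and of moved positions 43.1%. The shares by amino acid were not tested.

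**Figure D5:**
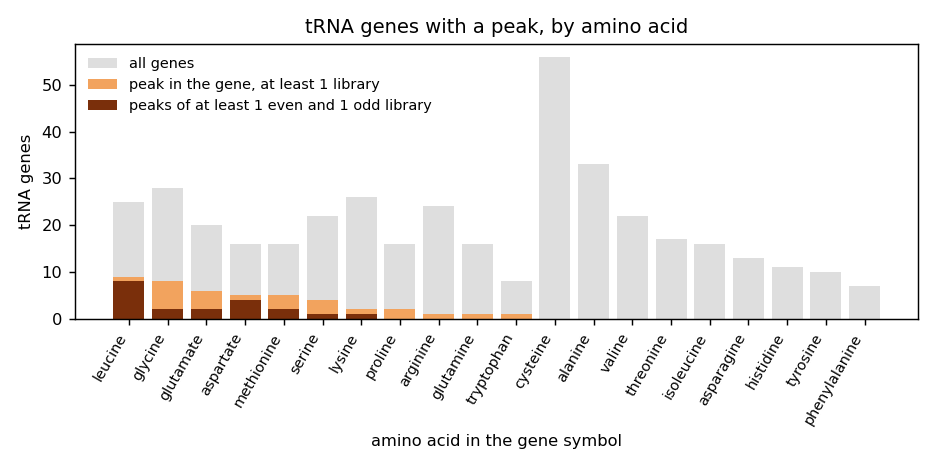
Number of tRNA genes (vertical axis) by amino acid: all genes in grey, those with a peak in the gene in at least 1 library in orange, and those with peaks of at least 1 even and 1 odd library in brown. Leucine has most genes reached by both probe sets, 8 of 25, and the 9 amino acids at the right have no gene under a peak.

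The count for leucine came mostly from 1 anticodon. Of 10 n-TLcag genes 8 were under a peak, 7 of them under peaks of both sets and 3 under peaks of all 4 libraries. By library, 8 and 4 leucine genes had a peak in even replicates 1 and 2 and 7 in each odd library, so the probe sets overlapped. Among aspartate genes, all with anticodon GTC, the libraries had 3, 4, 4 and 2. Of glycine genes with anticodon TCC 5 of 7 were under a peak, and of glutamate genes with anticodon CTC 5 of 12. Part of this was the chromosome 1 cluster, without which 4 of 20 leucine, 4 of 11 aspartate, 5 of 16 methionine, 3 of 16 glutamate and 4 of 19 glycine genes were under a peak, and still none of the 9 amino acids named. By anticodon, 3 of 5 n-TLcag genes, 1 of 2 glycine genes with TCC and 2 of 8 glutamate genes with CTC were then under a peak.

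Many tRNA genes lie beside protein-coding genes, and the data were therefore divided by this. An end of a protein-coding gene was within 5 kb of 106 tRNA genes, of which 14 (13.2%) were under a peak and 5 (4.72%) under peaks of both sets. Of the 297 others, 30 (10.1%) were under a peak and 15 (5.05%) under both. The 5 kb density ratio to moved windows was 1.61 ± 0.12 where a coding gene end was near and 1.49 ± 0.15 where none was (SD, n = 4 libraries), and their ranges over libraries overlapped (1.503 to 1.745 and 1.351 to 1.698).

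Other genes of the tRNA pathway were counted with peaks inside or within 5 kb, from lists of such genes. Peaks of any library were at 16 of 18 polymerase III subunit genes, 16 of 17 genes of its factors and regulator, 17 of 20 synthetase genes and 14 of 20 genes of tRNA end processing and export, where 74.9% of protein-coding genes had one. Peaks of both sets were found at 7 of 18 polymerase III subunit genes (38.9%), 5 of 17 genes of its factors and regulator (29.4%), 10 of 20 cytosolic aminoacyl-tRNA synthetase genes (50%) and 4 of 20 genes of tRNA end processing and export (20%). Of all 21876 protein-coding genes 42.4% had such peaks. Gene length was not allowed for. Regions of both sets were at Polr3e (2 libraries), at the shared subunit genes Polr1d and Polr2h, and at Gtf3c1, the largest subunit of TFIIIC (3 libraries, chr7:125660256-125660721). Farsb, a subunit gene of phenylalanyl-tRNA synthetase, held a region of all 4 libraries at chr1:78432769-78433077. Regions of 2 libraries were at Cars, Farsa and Kars, at Pop5, a subunit gene of RNase P, at the tRNA export receptor gene Xpot and at the splicing endonuclease gene Tsen54. Of 4 matched genes for other transcripts of the polymerase, 2 had a peak of any library and 1 had peaks of both sets. Within 5 kb, 36.85% of snRNA genes and 43.1% of moved tRNA positions had a peak, and 6.87% and 9.57% had both sets. The region of Rmrp, of 2 libraries, lay beside the gene, at chr4:43495002-43495437 where the gene ends at 43493059. The 7SK gene Rn7sk had a peak of odd replicate 1 inside or within 5 kb.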

How the data were processed

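Peak lists of 4 ChIRP-seq pulldowns were used as deposited. Per the submitters' processing notes, the aligner was Bowtie2 2.1.0 and the build mm10. By the names of the deposited lists, the authors called peaks in each library against 1 input library without pooling replicates, and peak names start with MACS. Which version and threshold were used, and how duplicate and multiply aligning reads were treated, is not stated in labels or headers. The score of each peak was deposited by the authors, without a stated scale. With peaks but no reads per library, the depth is unknown, no counting interval was formed, and a deeper library can yield more peaks.

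Positions are 1-based. tRNA genes (symbols starting n-T) and other genes came from RefSeq GRCm38.p6, which gave neither strand nor exons. Windows of 5 kb were merged and moved by 10 to 100 kb in steps of 10 kb to either side (20 sets), a background of measured neighbouring sequence rather than random placement. Named tRNA genes were those with a peak in the gene in at least 2 libraries (first 12 by number of libraries and mean percentile), the nearest gene of up to 12 further regions of both probe sets, and up to 4 genes per pathway list. n-TGtcc1, n-TGtcc5 and n-TGtcc4 were picked after their values were seen. Exact permutation tests were taken over libraries, two-sided, with a threshold of 0.05. Alternatives were other windows, stricter scores, other overlap rules, other moves, clusters left out and each library left out. The members and lists were chosen with earlier results of these data known. The B box core was searched on both strands of RefSeq promoter windows. The calculation was tested on simulated lists. Python 3.11.15, numpy 2.4.6, pandas 2.3.3 and matplotlib 3.10.9 were used.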

Additional observations from a re-analysis of the deposited data

How the results depend on the processing

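Among 88 recalculated values, no density ratio or difference changed direction. Density ratios and differences were compared by direction and side of the test threshold alone, and their sizes varied. The threshold could not be reached in any setting. The smallest exact permutation p was 0.125 for ratios over 4 libraries and 0.333 for 2 against 2 libraries. Only a change of direction could therefore have been seen, and a log2 ratio of 0.02 for peaks beside the gene alone counted as unchanged. Counts and score percentiles, which have no direction, were compared by size, and 7 of these moved. The mean log2 density ratio of the 5 kb windows (0.58) was positive in every setting run, from 0.02 for peaks beside the gene alone and 0.35 without the chromosome 1 cluster (both chosen after seeing the data) to 3.00 for the gene itself, and it was 0.51 to 0.62 with a library left out. Without that cluster the log2 ratio of the genes themselves was 2.47 against 3.00, the tRNA genes under peaks of both sets numbered 11 against 20 and the regions of both sets 17 against 28. With a library left out, genes under peaks of both sets numbered 12 to 16, lowest without even replicate 1, and regions of both sets 14 to 23, with 14 without even replicate 1 and 18 without odd replicate 2. Regions of all libraries kept numbered 6 to 11 against 6, with 11 without even replicate 2. The mean of the median score percentiles was 54.6 for all members and 61.3 for peaks on the genes. With the replicate number as a block, the even minus odd difference was -0.14 (exact permutation p = 0.5, the smallest 2 pairs allow). Same-numbered lists share an input library, and the 2 pairs are too few for a check of pairing. Keeping the left-out stretches of chromosomes 6 and 8 changed no value. Depth is unknown, and a gene without a peak is not shown to lack signal.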
